A study of Homo sapiens with 3 samples.

Results

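Of the 10 BCL2 family genes described here, 6 were expressed above background in all 3 iHCE cultures, beside 43.6% of all measured genes. The 6 were the guardian genes *MCL1*, *BCL2L1* and *BCL2L2* and the BH3-only genes *BID*, *BAD* and *BIK*. The guardian genes *BCL2* and *BCL2A1*, the effector gene *BAK1* and the BH3-only gene *BCL2L11* were not above background on any array. By its brightest probe set *MCL1* lay farthest above background, by 4.65 ± 0.23 log2 units (mean ± SD, n = 3 cultures). Of the 5 probe sets of *MCL1* only 2 were above background, and it was not called when _x_at and _s_at probe sets were left out. *BCL2A1* lay farthest below background, at -3.01 ± 0.08. The genes are a fixed list of family members, taken through every probe set on the array that is annotated to exactly 1 gene. All 10 genes were found, with 22 probe sets in all, among 11963 genes and 22283 probe sets of the whole table.

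The proteins of the BCL2 family decide whether the outer membrane of the mitochondrion is made permeable, which releases cytochrome c and starts the caspase cascade of apoptosis. Guardian proteins hold the membrane closed by binding the other members. Effector proteins form the pores, and BH3-only proteins are sensors of stress that engage the guardians or the effectors. Epithelia that renew themselves, such as that of the cornea, use this balance to keep basal cells alive and to remove damaged ones. SV40 large T antigen binds the tumor suppressor p53, whose transcriptional program includes several genes of the family.

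The samples were stratified cultures of iHCE cells, a line of human corneal epithelial cells that was immortalized with SV40 and makes its large T antigen. Each of 3 independent replicate cultures, at passages 22 to 23, was grown submerged on collagen-coated filters and then at an air-liquid interface, and gave 1 Affymetrix HG-U133A array. The electrical resistance of the cell layers was 489, 439 and 468 Ω · cm2 in cultures 1, 2 and 3. The authors deposited RMA expression values on the log2 scale, so that a difference of 1 is a doubling. There was a single group with no control samples, and arrays of corneal tissue were not analysed here. The only comparison the design allowed was therefore of each gene with background and of the cultures with each other.

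Background was set on each array at the 95th percentile of 60 measured genes that belong to other tissues, and a gene had to exceed it on all 3 arrays to be called. These thresholds were 7.19, 7.11 and 7.22 in cultures 1, 2 and 3. Over all measured genes 43.6% (5214) were called, and the mean level of a gene had a median of 6.98 and quartiles of 5.57 and 8.51. The mean distance from the threshold was also tested across all genes with limma (one-sided, Benjamini-Hochberg adjusted), by which 42.2% passed. Because each probe set binds with its own affinity, levels were not ranked between genes as amounts of RNA. The array of culture 1 stood somewhat apart, with 185 and 222 probe sets at least 1 log2 unit away from cultures 2 and 3, which differed from each other at 13. All 6 measured general and simple epithelial markers were called, such as *KRT18* (12.58 ± 0.20) and *CDH1* (11.02 ± 0.08), though without _x_at and _s_at probe sets 1 was measured, and it was called. Of the corneal epithelial markers, which include the keratin genes of stratified epithelia *KRT5* and *KRT14*, 0 of 6 measured were called. *KRT3* was at 4.86 ± 0.10 and *KRT12* at 5.26 ± 0.16, while *PAX6* came closest to the thresholds, at 6.83 ± 0.28. None of the markers of keratocytes and fibroblasts (0 of 6), melanocytes (0 of 5), immune cells (0 of 6) or endothelium (0 of 5) were called. With the 90th percentile of the panel or without _x_at and _s_at probe sets 1 endothelial marker, *TEK*, was called.

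**Figure D1:**
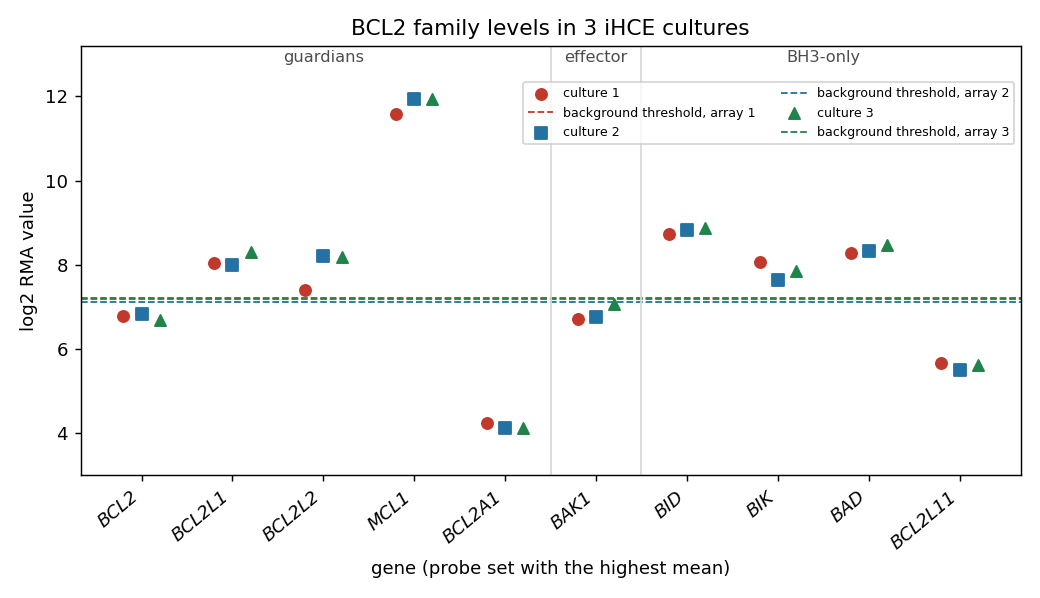
Log2 RMA value of each of the 10 BCL2 family genes in cultures 1, 2 and 3 (1 point per culture, from the brightest probe set of the gene), grouped by role, with the background threshold of each array as a dashed line. *MCL1* lies highest, at 11.58 to 11.94, and *BCL2A1* lowest, at 4.11 to 4.25, while *BCL2* and *BAK1* sit just under the thresholds.

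Among the guardian genes, 3 of 5 were above background, beside 43.6% of all measured genes. *MCL1* encodes a short-lived guardian protein whose level is set by rapid synthesis and degradation. Its brightest probe set read 11.58, 11.94 and 11.94 in cultures 1, 2 and 3, far above the threshold on every array (limma adjusted p = 1.68e-12). *BCL2L1*, the gene of BCL-XL, read 8.04, 7.998 and 8.30, which is 0.94 ± 0.12 above the threshold (adjusted p = 3.63e-06). *BCL2L2*, the gene of BCL-W, read 7.39, 8.21 and 8.18. Culture 1 was the low one for this gene and exceeded its threshold by 0.21 log2 units, against 1.10 and 0.96 in the others. The mean distance of *BCL2L2* was 0.76 ± 0.48 (adjusted p = 0.00069).

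The other guardian genes were at background. *BCL2*, the founding member of the family, read 6.78, 6.83 and 6.68, with distances of -0.41, -0.28 and -0.53 from the thresholds of the arrays. Its mean distance was -0.41 ± 0.13, with a 95% limma interval from -0.65 to -0.17. *BCL2A1*, a guardian gene of blood cells and of inflammatory signaling, read 4.25, 4.11 and 4.12. These values lay under the lower quartile of the gene means, and RMA values at that level are read within background. The 3 values of each gene lay close together, and neither exceeded the threshold in any culture.

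*BAK1* is the only pore-forming effector gene of the set. It read 6.71, 6.77 and 7.06, below the threshold on all 3 arrays and closest to it in culture 3, where its distance from the threshold was -0.16. The mean distance was -0.33 ± 0.16 (95% limma interval -0.57 to -0.08). *BAX*, the gene of the other main effector, read 6.32, 6.98 and 6.81, with a mean distance of -0.47. It was lowest in culture 1, and both of its probe sets were below background. A level below background on an array is not evidence that a transcript is absent.

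Among the BH3-only genes, 3 of 4 were above background, beside 43.6% of all measured genes. *BID*, whose protein is cut by caspase-8 and links death receptors to the mitochondrion, read 8.73, 8.82 and 8.88, a distance of 1.64 ± 0.09 (adjusted p = 1.2e-08). *BAD*, a sensor held inactive by phosphorylation and 14-3-3 proteins, read 8.29, 8.32 and 8.47, a distance of 1.19 ± 0.08 (adjusted p = 2.9e-07). *BIK*, whose protein resides mainly at the endoplasmic reticulum, read 8.06, 7.64 and 7.84. It was highest in culture 1, the reverse of *BCL2L2*, and its distance was 0.67 ± 0.18 (adjusted p = 0.00012). *BCL2L11*, the gene of BIM, which binds all guardians, read 5.67, 5.49 and 5.61. Its distances from the thresholds were -1.51, -1.62 and -1.60, below background in every culture.

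**Figure D2:**
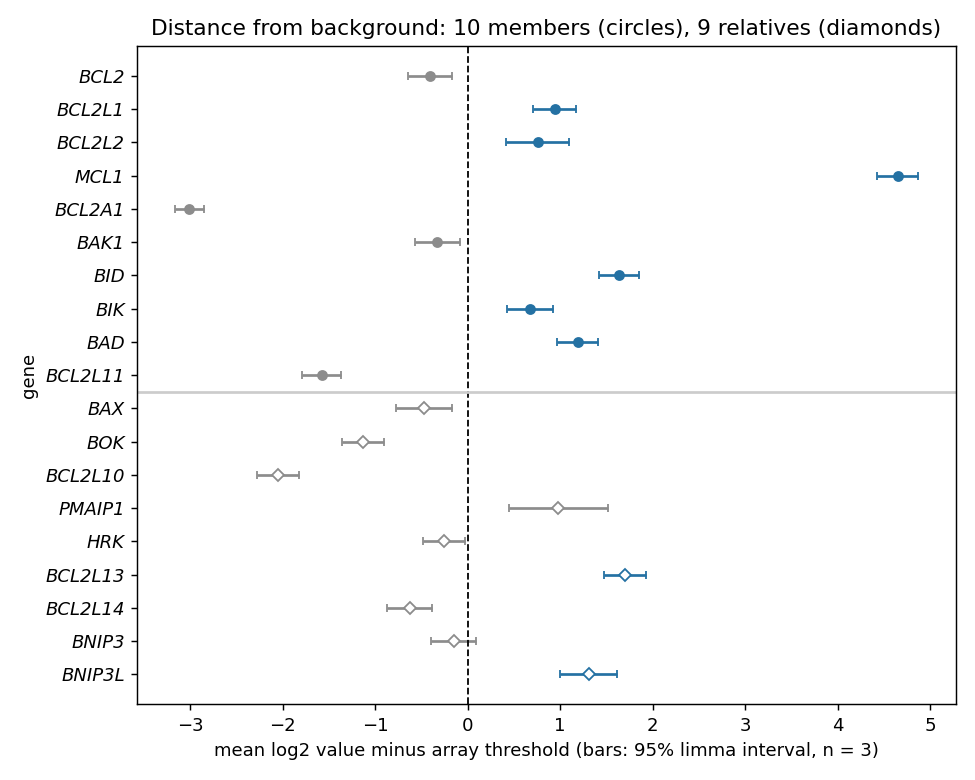
Mean log2 value minus the array's background threshold over 3 cultures for the 10 members (circles) and 9 other BCL2 family genes (diamonds), with 95% limma intervals as bars and the threshold as a dashed line at 0. Blue marks genes above the threshold on all 3 arrays, which are 6 of the 10 members and, of the others, *BCL2L13* and *BNIP3L*.

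The share of 6 in 10 stood beside 43.6% of all measured genes. By limma the same 6 members passed (6 of 10, beside 42.2% of all genes). With so few genes the difference between these shares was not tested. Each call used the brightest probe set, and 6 of the 10 members had several, beside 4310 of all 11963 genes. The shares were not adjusted for this. Averaged over probe sets 5 members were called, beside 41.4% of all genes. The count depended on the threshold. With the highest value of the panel, 14.7% of all genes and only *MCL1* of the members were called, and with the median plus 3 scaled MADs 4 members were called, without *BCL2L2* and *BIK*, beside 34% of all genes.

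The probe sets of 1 gene often disagreed, and the 6 calls rest on single probe sets for *BCL2L1*, *BCL2L2*, *BIK* and *BAD*. Of the 22 probe sets 8 were above background on all 3 arrays and 14 on none. Among the 6 members with several probe sets, *BID* had both above background, *BCL2* and *BCL2L11* had none, and *MCL1*, *BCL2L1* and *BAD* were split. Such a split occurred in 41.0% of the 4310 genes with several probe sets, so it is common on this array.

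*MCL1* showed the widest disagreement. Its 5 probe sets had means of 11.82 ± 0.21, 8.74 ± 0.15, 6.07 ± 0.43, 5.34 ± 0.05 and 5.12 ± 0.22, so that 2 lay above background and 3 below. The gap of 6.70 between the brightest and the dimmest exceeded that of 99.2% of genes with several probe sets, where the median gap was 1.60. Those genes were not matched to *MCL1* in the number of probe sets, and more probe sets can widen the gap. Both bright probe sets carry a manufacturer's mark for probes that are not unique to 1 transcript (_s_at and _x_at), and so does the dimmest (_s_at). Without such probe sets the thresholds, computed anew, were 6.91 to 7.07, the *MCL1* level was -0.94 relative to them, and the gene was not called. Averaged over all 5 probe sets it was 0.60 above the thresholds of that setting, which were 6.68 to 6.90. In culture 1 both probe sets above background were lower than the mean of the other cultures, with a difference of -0.37 for the brightest and -0.088 for the second.

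For *BCL2L1* the call came from 1 of 3 probe sets. The others had means of 5.43 ± 0.15 and 4.45 ± 0.09. Averaging over the 3 probe sets put the gene at -0.82 relative to the lower thresholds of that setting. *BAD* had a second probe set at 6.62 ± 0.19, which was below background on each array. *BID* was called by both, at 8.81 ± 0.08 and 7.87 ± 0.16. For *BCL2* the 4 probe sets had means from 4.99 to 6.76, and for *BCL2L11* the 2 probe sets 5.59 ± 0.09 and 4.58 ± 0.18. The single probe set of *BCL2L2* was supplemented on the array by one that also names *PABPN1* and their read-through transcript, at 10.81 ± 0.11, which cannot be given to 1 gene and was left out.

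**Figure D3:**
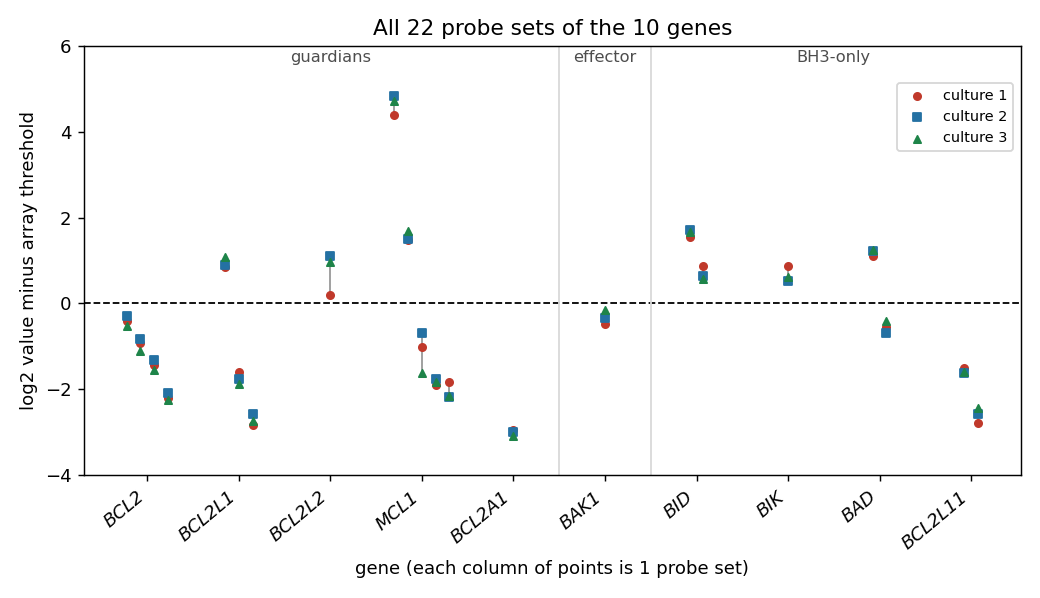
Log2 value minus the array's background threshold for each of the 22 probe sets of the 10 genes, where each column of points is 1 probe set and the points are cultures 1, 2 and 3. Points above the dashed line at 0 exceed background. Of the 5 probe sets of *MCL1* 2 lie above the line and 3 below, while both of *BID* lie above it.

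The spread of the members between the cultures differed from gene to gene. The SD over the 3 cultures had a median of 0.128 over the 10 members, beside 0.143 over all genes. Over the 6 called members it was 0.188, beside 0.144 over all called genes. RMA compresses low values, and whether this shaped the SD of the members at background was not tested. The SD ran from 0.076 for *BCL2* to 0.46 for *BCL2L2*. *BCL2L2* varied most, with a range of 0.82 log2 units, wider than in 96.9% of the genes called. *BIK* followed with a range of 0.43, and *MCL1* with 0.37. *BID* and *BAD* had narrow ranges of 0.16 and 0.18.

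In culture 1, by the brightest probe sets, 5 of the 6 called members were lower than the mean of the other cultures, and *BIK* was higher. Of all called genes 49.9% were lower. For *BID* the probe sets disagreed, with a difference of -0.12 for the brightest and 0.28 for the second, which was also above background. The value in culture 1 minus the mean of cultures 2 and 3 was -0.80 for *BCL2L2*, and 1.23% of called genes had a lower one. The same difference was -0.37 for *MCL1* and -0.20 for *BAK1*. It was 0.32 for *BIK*. Over the members the median deviation of culture 1 was -0.11, beside 0.02 over all genes, and over the called members -0.12, beside 0.00076 over all called genes. The median over the members was -0.17 to 0.068 under the other settings, and the difference from other genes was not tested. Each culture has 1 array, and culture and array cannot be told apart. Without culture 1 the same 6 members were called, beside 45.3% of all genes. This was fixed in advance, since each member was above background on all 3 arrays or on none. The distance of *BCL2L2* rose to 1.03 without that culture.

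The called genes whose profile over the 3 cultures was most like that of *BCL2L2* were *HEG1*, *NFKBIA* and *KANK2*. *HEG1* read 9.77, 10.58 and 10.55, a root mean square difference of 0.0029 in the deviations from the gene's mean. For *NFKBIA* and *KANK2* the difference was 0.0032 and 0.0059. Of the 5214 called genes 101 came within 0.1 of the *BCL2L2* profile, which rests on only 3 cultures.

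**Figure D4:**
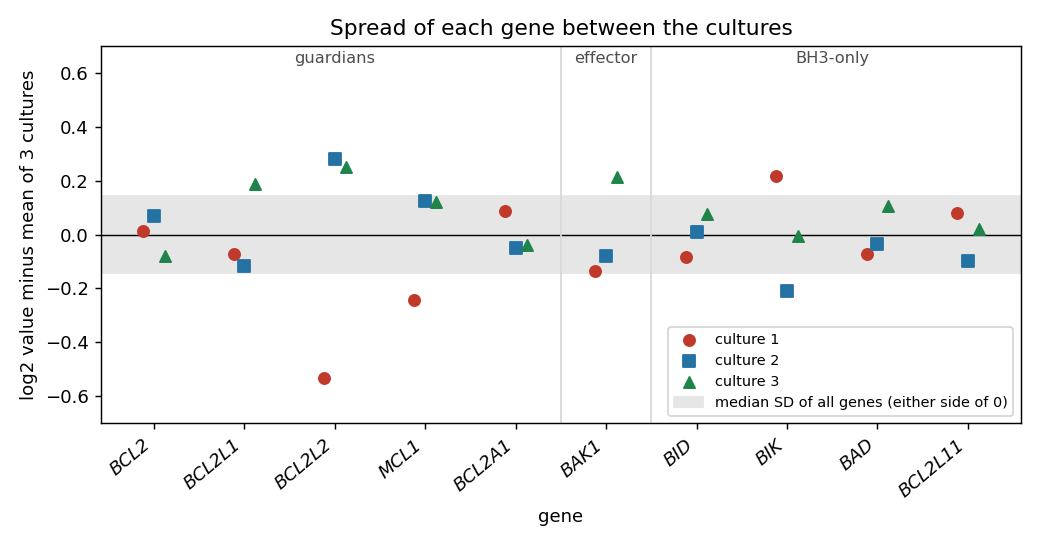
Log2 value of each member in cultures 1, 2 and 3 minus the mean of the 3 cultures, with the median SD of all genes as a grey band on either side of 0. Culture 1 lies lowest for *BCL2L2* and *MCL1* and highest for *BIK*, while *BID* and *BAD* stay inside the band.

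Promoter sequence was compared with the calls, because genes with CG-rich promoters are broadly expressed as a rule. RefSeq (GRCh38.p14) gave the 250 bases before a start site for 7 of the 10 members, and the window with most CG dinucleotides was taken where a gene had several. The other members were *MCL1*, *BCL2L2* and *BIK*. The dinucleotide CG reads the same on both strands, and 10 or more of them were found in 52.2% of all 35116 windows and, by the richest window, in 79.7% of the 9562 measured genes that had one. Of the measured genes with such a window 54.8% were called, against 13.3% of those with fewer CG. Of the members, 3 of the 5 with such a window and 0 of the 2 with fewer CG were called, and these few genes were not tested. The 3 called members with a window, *BID*, *BAD* and *BCL2L1*, had 30, 20 and 17 CG, while *BCL2L11* and *BCL2* had 34 and 24 and were not called. The count for *BID* is that of the richest of its 5 windows, of which the poorest held 4. *BAK1*, with 5, and *BCL2A1*, with 2, were poor in CG and not called. The CG count describes these windows and says nothing of which factors bind them.

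The windows are shown for a called CG-rich member, a CG-rich member at background and the CG-poorest member, each 5′ to 3′ on the gene's strand, with every CG in capitals. They lie at chr22:17774470-17774719 (minus strand, *BID*), chr2:111120664-111120913 (plus strand, *BCL2L11*) and chr15:79971197-79971446 (minus strand, *BCL2A1*).
BID: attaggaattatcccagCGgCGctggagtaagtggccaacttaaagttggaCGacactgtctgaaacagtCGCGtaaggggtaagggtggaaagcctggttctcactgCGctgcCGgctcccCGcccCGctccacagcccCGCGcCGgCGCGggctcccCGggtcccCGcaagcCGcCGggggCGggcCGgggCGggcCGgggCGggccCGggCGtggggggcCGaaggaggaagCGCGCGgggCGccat
BCL2L11: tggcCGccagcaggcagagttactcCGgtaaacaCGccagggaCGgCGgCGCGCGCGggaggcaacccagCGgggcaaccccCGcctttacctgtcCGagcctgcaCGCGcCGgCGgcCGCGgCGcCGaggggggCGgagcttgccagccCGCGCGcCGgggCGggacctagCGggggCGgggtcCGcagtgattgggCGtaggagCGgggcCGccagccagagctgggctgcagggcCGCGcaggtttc
BCL2A1: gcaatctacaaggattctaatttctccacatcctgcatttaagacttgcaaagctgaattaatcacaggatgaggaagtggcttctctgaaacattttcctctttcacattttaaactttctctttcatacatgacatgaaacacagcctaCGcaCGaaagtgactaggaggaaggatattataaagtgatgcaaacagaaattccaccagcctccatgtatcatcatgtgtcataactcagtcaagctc

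Of 9 other measured BCL2 family genes, 2 were above background, beside 43.6% of all measured genes. *BCL2L13*, a mitophagy receptor of the outer membrane, had a level of 8.87 ± 0.12, and *BNIP3L*, another mitophagy receptor, 8.48 ± 0.38. *PMAIP1*, the gene of NOXA, a BH3-only protein that binds MCL1, read 7.13, 8.68 and 8.66. It passed limma (adjusted p = 0.0026) but fell short of the threshold in culture 1, where *BCL2L2* and *MCL1* were also lowest. *BCL2L10*, *BCL2L14*, *BOK*, *HRK* and *BNIP3* were not called, and neither was *BAX*.

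Downstream of the family, 7 of 11 measured genes of the apoptosome and the caspases were above background, beside 43.6% of all measured genes. *CYCS*, the gene of cytochrome c, had a level of 11.25 ± 0.19. *DIABLO* (9.89 ± 0.08) and *HTRA2* (9.04 ± 0.19), whose proteins are released with it and relieve caspase inhibition, were called. *APAF1*, the scaffold of the apoptosome, read 6.90, 6.27 and 6.29 and was not called, as were *CASP2*, *CASP6* and *DFFB*. All 8 measured genes of mitochondrial membrane partners were above background, such as *SLC25A5* (13.08 ± 0.20), an ADP/ATP carrier, *MTCH2* (11.44 ± 0.08), the receptor of cleaved BID, and *VDAC2* (11.08 ± 0.14), which holds BAK1 at the membrane. Without _x_at and _s_at probe sets, where 36.6% of all measured genes were called, 4 of 5 partners still measured were called. So were 3 of 4 genes of the apoptosome and the caspases. *VDAC1* was then at -1.73 relative to the threshold of that setting. Of 5 genes of inhibitors of apoptosis, *BIRC2* (11.14 ± 0.13) and *BIRC5* (8.70 ± 0.22), the gene of survivin, were called and *BIRC7*, *NAIP* and *XIAP* were not.

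Upstream, the genes that act on members were above background in part. Of 8 regulators of MCL1 stability 4 were called, namely *HUWE1* (13.68 ± 0.10), a ubiquitin ligase of MCL1, *CDK1* (10.90 ± 0.19), *USP9X* (10.24 ± 0.11), which removes ubiquitin from MCL1, and *GSK3B*. *BTRC*, *FBXW7*, *MAPK8* and *TRIM17* were not. Without _x_at and _s_at probe sets *HUWE1* was at -0.93 relative to the threshold of that setting. Of 13 kinases and 14-3-3 partners of BAD 7 were called, led by *SFN* (13.19 ± 0.07), *YWHAQ* (12.42 ± 0.24) and *YWHAB* (12.30 ± 0.16), all genes of 14-3-3 proteins. *AKT2*, *PIM1*, *PIM2* and *PRKACA* were among those not called. Of these, *PIM1* and *PRKACA* exceeded the threshold on 2 of 3 arrays, and *PIM1* passed limma (adjusted p = 0.028). Of 10 measured genes of the p53 program 6 were called, among them the cell cycle inhibitor gene *CDKN1A* (10.33 ± 0.08), *CCNG1* (10.17 ± 0.15) and the death receptor gene *TNFRSF10B* (9.50 ± 0.21). *MDM2*, *PERP*, *SESN1* and *ZMAT3* were not. Without _x_at and _s_at probe sets 2 of 4 genes of the p53 program still measured were called, beside 36.6% of all genes. The shares with all probe sets stand beside 43.6% of all genes. None of these shares was tested.

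**Figure D5:**
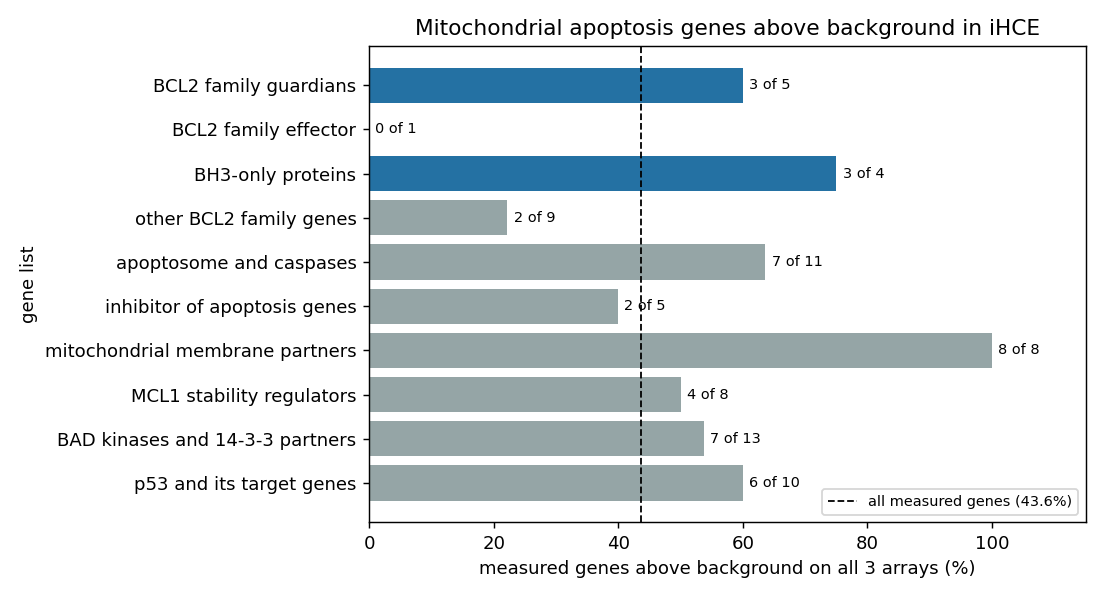
Percent of the measured genes of each list that were above background on all 3 arrays, with the counts beside the bars, the members in blue and other lists of the pathway in grey. The dashed line marks the 43.6% of all measured genes. Mitochondrial membrane partners have the longest bar (8 of 8), and the effector group, which holds *BAK1* alone, has none.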

How the data were processed

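The 3 iHCE arrays form 1 group of 3 replicate cultures. The authors computed the log2 values by RMA, in R 2.8.0 per the submitters' processing notes, and deposited them for the manufacturer's probe sets. RMA corrects background and normalizes between arrays, which removes differences in total brightness and compresses low values. The study's methods describe RMA over the culture and tissue arrays together, with probes regrouped by Entrez gene. Whether the deposited values of the manufacturer's probe sets come from that run, and the genome build behind the annotation, are not given in the sources used here.

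Probe sets were named from the platform annotation, with symbols updated through Entrez numbers in RefSeq (GRCh38.p14). Of the probe sets 19071 named 1 gene and were used, taking the brightest for each gene, 1043 named several and 2169 were not listed there. The 12 symbols that were not found in RefSeq were kept. Background was the 95th percentile, on each array, of 60 measured genes out of 68 listed for other tissues. Of these 60 genes, 2 were above it on all arrays. The threshold was subtracted and treated as known in limma 3.58.1 (R 4.3.3, intercept only, trended prior, adjusted p under 0.05 over 11963 genes). Intervals are at 95% from the same fit. There was no second group, hence no fold change. Arrays give no counting depth, so that their number limits the precision, and the SD covers culture and technical variation together.

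The members, lists and panel were chosen with earlier results of these data known. Named genes were the members, from each list the 3 farthest above background and up to 4 not called, the markers, and the 3 genes most like the member of widest range. Some further genes of the lists were named after their values were seen (*BOK*, *GSK3B*, *HRK*, *PMAIP1*, *TEK* and *VDAC1*). Alternatives tried were other thresholds (the 90th percentile, the highest value, and the median plus 3 scaled MADs), the mean over probe sets, leaving out _x_at and _s_at probe sets, quantile normalization, limma without the trend, and leaving out each culture. For the mean over probe sets, without _x_at and _s_at probe sets and after quantile normalization, the thresholds were computed anew from the panel. The comparison of gene levels with a fixed threshold was tried on simulated data. These did not cover the choice of threshold or of probe set, and held no uncalled genes with means just below the threshold.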

Additional observations from a re-analysis of the deposited data

How the results depend on the processing

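Of 90 distances of a member from background under an alternative setting, 80 kept their direction and their side of the threshold. Those without a culture had to, since every member probe set lay on the same side of the threshold in all 3 cultures. With the highest panel value as threshold they turned negative for *BCL2L1* (-0.82), *BCL2L2* (-1.01), *BID* (-0.12), *BIK* (-1.09) and *BAD* (-0.57), and 1 member was above background, also by limma. With the median plus 3 scaled MADs *BCL2L2* (0.25) and *BIK* (0.16) stayed above on average but were not called. With the mean over probe sets *BCL2L1* was at -0.82 and *BAK1* at 0.026, and 5 members were called, beside 41.4% of all genes. *BAK1* has 1 probe set, so its level was unchanged, while the thresholds of that setting were lower, at 6.68 to 6.90. Without _x_at and _s_at probe sets *MCL1* was at -0.94, and 5 members were called, beside 36.6% of all genes. The median deviation of culture 1 was then 0.068. Of the other listed pathway genes 36 were called, 20 with the highest panel value and 22 without _x_at and _s_at probe sets, where fewer genes (8371) were measured. Over all genes 5214 were called, 1764 with the highest panel value and 3060 without those probe sets. In the settings with another threshold the gene levels were the same and only the threshold differed. The cause of the other changes was not tested.

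The same 6 members were called without replicate 1, 2 or 3, beside 45.3%, 43.7% and 44.7% of all genes. Leaving out a culture could not change these calls, since every member probe set was above background on all 3 arrays or on none. The same 6 were also called after quantile normalization, beside 43.6% of all genes, and with the 90th percentile, beside 46.9%. The lower threshold of the 90th percentile could not remove a call. By limma without the trend 6 passed. The deviation of culture 1 could not be computed without culture 1. No paired analysis was possible because there is a single group. Signal over background limits what can be said of *BCL2*, *BAK1*, *BCL2L11* and *BCL2A1*, whose values lie within background.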
